A study of Mus musculus with 20 samples.

Results

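Heat shock proteins, the J domain (DnaJ) cochaperones that work with them, the BAG proteins, the CCT chaperonin subunits and the heat shock factors were followed through the hypothalamic arcuate nucleus (ARC) of mice given corticosterone (Cort). The genes were chosen by symbol, as every gene whose name begins with Hspa, Hspb, Hspd, Hspe, Hsph, Hsp90, Dnaja, Dnajb, Dnajc, an Hsf number or a CCT subunit name, together with the numbered BAG genes and without pseudogenes. This gave 94 genes of the 22048 in the files. The rule used symbols alone, but it was chosen with earlier results of these data known. All 94 are protein coding. They hold 45 J domain proteins, 11 HSP70 genes, 8 small heat shock proteins, 8 CCT genes, 6 BAG genes, 5 heat shock factor genes, 3 HSP90 genes, 3 HSP110 genes, both mitochondrial chaperonins and 3 genes that the name rule matched although they belong to other families (Hspbp1, Hspbap1 and Hsf2bp). The other genes were placed in families by symbol, so Hspb11 counts as a small heat shock protein here by its name alone.

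Male C57BL6/J mice, 10 weeks old, drank Cort at 75 µg/ml in 1% ethanol, or 1% ethanol alone as vehicle, for 2 days or for 4 weeks. The 4 week mice were also fasted for 16 h and refed for 24 h before they were killed, still on Cort or vehicle. The ARC was cut from stained sections by laser capture, and its RNA was amplified and sequenced as bulk tissue. Each of the 4 groups had 5 samples, and in each dataset the authors left out 2 vehicle samples and 1 Cort sample that stood apart on principal components, so that 3 vehicle and 4 Cort samples were compared. The datasets also differed in section thickness, slides, laser system, sequencer and fasting, none of which can be told apart from the length of treatment. The labels do not name the animal behind each sample, so P values measure the spread between these samples.

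Chaperones bind unfolded or newly made proteins and keep them from aggregating. HSP70 proteins do so in cycles of ATP hydrolysis that J domain proteins start and that BAG and HSP110 proteins help to end by nucleotide exchange, and HSP90 takes over many of the clients, among them the glucocorticoid receptor, which it holds in a state able to bind hormone. Heat shock factor 1 (HSF1) is kept quiet by the same chaperones and, when released by misfolded protein, binds heat shock elements, inverted repeats of the letters GAA, in front of their genes.

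The samples compared held 2487063 to 5748223 counts at 2 days and 1837715 to 5196364 at 4 weeks, and the shallowest library, a 4 week vehicle sample left out, held 1065776. Levels are given as CPM, the counts of a gene scaled to a common library size. Agrp, Npy and Pomc, which mark ARC neurons, were at 121.7 CPM or more in each 2 day sample compared and at 49.1 CPM or more in each 4 week sample compared. Chaperone genes took 1.32% to 1.48% of the counts in the 3 vehicle samples and 1.28% to 1.39% in the 4 Cort samples at 2 days. At 4 weeks they took 1.19% to 1.26% with vehicle and 1.08% to 1.25% with Cort, so the groups overlapped at both times. In bulk tissue, fewer cells that express a gene and less of its RNA per cell cannot be told apart.

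Heat shock elements in the promoters are shown first, because they are the sequence through which HSF1 acts. RefSeq promoter windows of GRCm38.p6, running from 250 bases before to 50 bases after each transcription start, were found for 76 of the 94 genes (96 windows). Genes without a window include Hsf1, Hsp90aa1, Hsp90ab1, Hspa8, Hspa9, Dnajc11 and Dnajc12, so their promoters were not searched. The 2-unit element, GAANNTTC or TTCNNGAA on either strand, was in 23 of the 96 windows (24.0%) and in 15.1% of all 32851 windows. The 3-unit element, GAANNTTCNNGAA or TTCNNGAANNTTC, which contains 2 overlapping 2-unit matches, was in 6 of the 96 windows (6.25%) and in 0.603% of all windows, and the 6 windows belonged to Dnajb6, Hspd1, Hspe1 and Hsph1. The windows of Dnajb1 and Hsf2 held neither element. A palindromic glucocorticoid response element, GNACANNNTGTNC, was in none of the 96 windows and in 0.475% of all windows. With so rare an element, its absence from 96 windows says little about these genes. Stretches of 4 promoters are printed 5′ to 3′ with every 2-unit match in capitals. They were chosen because Hspe1 and Hsph1 carry the 3-unit element and are well expressed here, while Hspa1a and Hspb1, classical heat-inducible genes, were almost silent. For Hspa1a and Hspb1 the 150 bases before the start are given, and for Hspe1 and Hsph1 the 30 bases around the matches before the start and, for Hsph1, 20 bases after it.
Hspe1, chr1:55088053-55088082, plus strand: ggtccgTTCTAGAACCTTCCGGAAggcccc
Hsph1 before the start, chr5:149636351-149636380, minus strand: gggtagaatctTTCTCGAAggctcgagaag
Hsph1 after the start, chr5:149636286-149636305, minus strand: gcagaTTCTGGAAAGTTCtc
Hspa1a, chr17:34972157-34972306, minus strand: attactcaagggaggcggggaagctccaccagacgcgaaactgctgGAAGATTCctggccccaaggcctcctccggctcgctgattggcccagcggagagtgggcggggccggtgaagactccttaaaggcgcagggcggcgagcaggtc
Hspb1, chr5:135887769-135887918, plus strand: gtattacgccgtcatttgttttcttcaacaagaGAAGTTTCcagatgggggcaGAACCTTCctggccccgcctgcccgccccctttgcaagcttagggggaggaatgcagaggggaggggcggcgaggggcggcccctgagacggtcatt
In Hspe1 the matches run together from 89 bases before the start. Hspd1 is transcribed from the opposite strand, its annotated gene overlaps Hspe1 head to head, and one of its windows holds the same bases. In Hsph1 a single 2-unit match starts 54 bases before the start and the 3-unit element 16 bases into the transcript. Hspa1a holds 1 match, from 104 bases before its start, and Hspb1 holds 2, from 117 and 97 bases before its start.

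The most abundant chaperone transcripts were those of the constitutive machinery. Levels were compared between genes as CPM per kilobase of exon, with exon lengths from the GENCODE annotation of GRCm38, as the mean of the 7 samples compared in a dataset. The length joined the exons of all annotated transcripts of a gene, for example 2557 bases for Cct2 and 6370 for Cct3. The order of genes and their shares therefore also depend on the annotation. Hsp90ab1, the constitutive cytosolic HSP90, was the highest at both times, at 735 CPM per kb (range 664 to 846) at 2 days and 620 (506 to 744) at 4 weeks. Hsp90b1, the HSP90 of the endoplasmic reticulum (ER), followed at 317 and 223 CPM per kb, and its range met that of no other gene at 2 days. Hspa5, the ER HSP70 known as BiP, stood at 186 and 120 CPM per kb, Hsph1, an HSP110 exchange factor, at 132 and 130, Bag1, an HSP70 exchange factor, at 127 and 106, and Cct2, a subunit of the cytosolic chaperonin, at 116 and 120. Between 2 days and 4 weeks Hspa5 and Hsph1 exchanged places, and at 4 weeks the ranges of Hsph1, Hspa5, Cct2 and Bag1 all overlapped, so their order there is not larger than the spread between samples. The 5 highest genes made up 45.8% of the summed level of the list at 2 days and 44.5% at 4 weeks, the 3 HSP90 genes alone 34.7% and 33.6%. Of the 10 highest genes at 2 days, 9 were among the 10 highest at 4 weeks.

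Genes known to be induced by heat were found at both ends of this order. Hsp90aa1, the inducible cytosolic HSP90, stood at 83.0 CPM per kb at 2 days and 70.8 at 4 weeks. Hspa1a and Hspa1b, the inducible HSP70 pair, averaged 1.43 and 0.740 CPM per kb at 2 days, and Hspb1 (HSP25) averaged 1.30. Before scaling by length, Hspb1 reached at most 3.61 CPM in a sample compared at 2 days and 3.66 CPM at 4 weeks. A count of 3 in a library, taken here as the floor, corresponds to 0.514 to 1.21 CPM in the 2 day samples compared and to between 0.604 and 1.55 CPM in those of 4 weeks, and to as much as 2.82 CPM in a 4 week sample left out. Samples are named here by their column in the count tables. Hspa1a stood out in 1 sample compared, the 4 week Cort sample C08, at 67.0 CPM, and the other 6 samples of that dataset lay between 0 and 6.41 CPM. Hsf1 and Hsf2, the factors themselves, averaged 3.99 and 6.06 CPM per kb at 2 days and 9.82 and 4.15 at 4 weeks. Several genes share sequence with copies elsewhere: over 20% of the 50-base stretches of their transcripts occur in other genes for 14 of the 94, among them Hspa1a (66.3%, mainly with Hspa1b), Hspa1b (62.3%), Hspb1 (50.1%), Hsp90aa1 (47.5%), Hspd1 (42.1%) and Hspa8 (39.4%), and their counts are uncertain to the extent that such reads were dropped or shared out.

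**Figure D1:**
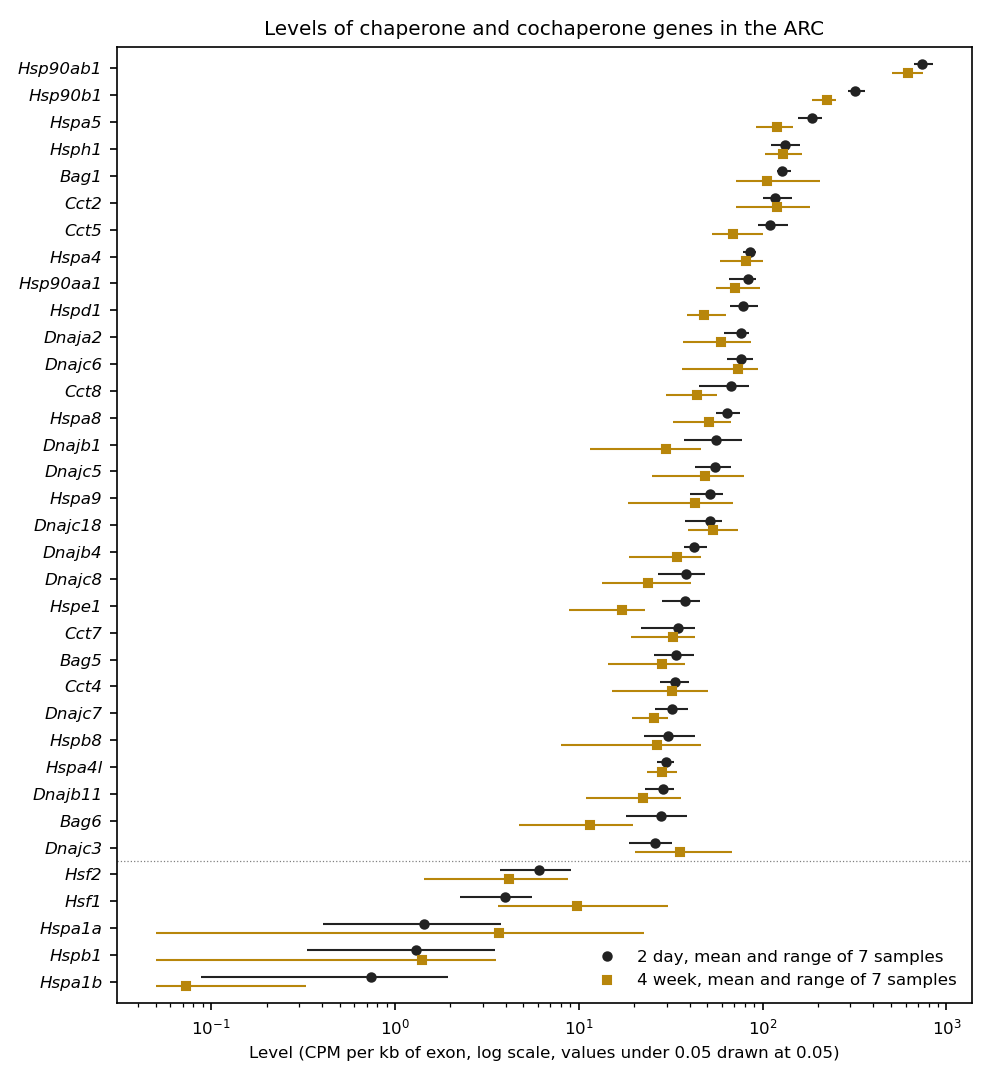
Level of the 30 highest genes at 2 days and of 5 inducible or factor genes (below the dotted line), as CPM per kb of exon on a log axis, with points for the mean and lines for the range of the 7 samples compared in the 2 day (circles) and 4 week (squares) datasets. Hsp90ab1 stands highest in both, and Hspa1b averaged 0.740 at 2 days and 0.0729 at 4 weeks.

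After 2 days of Cort no chaperone gene passed the test. Of the 94 genes, 75 had enough counts to be tested, and 0 had an adjusted P (Padj) below 0.1 in edgeR's quasi-likelihood test, where 0.065% of all 12309 genes tested did. DESeq2 also called 0 of the 75, with 0.439% of all genes called. An unadjusted P below 0.01 was reached by 0 of the 75 (1.49% of all genes) and one below 0.05 by 2 of the 75 (5.97% of all genes). The fitted change was above 0 in 38 genes and below 0 in 37, with a median log2 fold change of 0.01 against 0.02 over all genes. For 49 of the 75 genes the 95% interval of the change lay wholly inside 1 log2 unit (2-fold) in either direction, which held for 44.7% of all genes tested.

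Both genes under an unadjusted P of 0.05 had lower fitted levels with Cort. Hspa9 encodes mortalin, the HSP70 of mitochondria. Its vehicle samples held 249, 252.4 and 261 CPM and its Cort samples 179, 174, 210 and 237 CPM, so that the 7 samples did not overlap. The edgeR log2 fold change was -0.35 ± 0.15 (SE), with Padj = 0.803. The samples left out broke this order, since the vehicle samples among them held 206 and 130 CPM and the Cort sample 190 CPM. Bag6 encodes a chaperone that hands tail-anchored and misfolded proteins to their targeting and degradation machinery. Its vehicle samples held 240, 154 and 224 CPM and its Cort samples 112, 176, 171 and 145 CPM, which overlap, with a log2 fold change of -0.45 ± 0.19 (SE) in edgeR and Padj = 0.791.

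The groups of 7 did not overlap for 3 of the 75 genes (6.53% of all genes tested), Hspa9, Hspa1a and Hspa4, an HSP110 exchange factor named after its values were seen, each lower with Cort (3.31% of all genes). Over all 10 samples they overlapped for each of the 75, where 0.796% of all genes did not. For Hspa1a the vehicle samples held 3.97, 11.2 and 4.08 CPM and the Cort samples 3.94, 3.77, 1.61 and 1.21 CPM, close to the floor. The HSP90 genes all had a fitted change slightly below 0, by 0.16 for Hsp90aa1, 0.12 for Hsp90ab1 and 0.05 for Hsp90b1 on the log2 scale, each with an interval that held 0. Hspa5, the ER chaperone, held 799, 890 and 884 CPM with vehicle and 858, 755, 659 and 669 CPM with Cort, overlapping in 1 Cort sample (log2 fold change -0.23, 95% interval -0.47 to 0.02, edgeR Padj = 0.863).

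Among the other families at 2 days, 8 of 10 HSP70 genes and 2 of 3 HSP110 genes had a fitted change below 0, and 5 of 6 BAG genes, 5 of 6 CCT genes, 3 of 3 small heat shock proteins and both mitochondrial chaperonins had one above 0, against 52.1% of all genes above 0. The 38 J domain genes tested were split evenly, 19 above and 19 below. The J domain genes with the smallest P above 0 were Dnajb9, an ER J protein that represses the stress sensor IRE1 (log2 fold change 0.46, Padj = 0.865), Dnajb5 (0.67, Padj = 0.866), and the mitochondrial J proteins Dnajc15 (0.50, Padj = 0.889) and Dnajc19 (0.76, Padj = 0.899), followed by the histone chaperone Dnajc9 (0.44, Padj = 0.914). Those with the smallest P below 0 were Dnajc18 (-0.31, Padj = 0.840) and the ER membrane J protein Dnajb12 (-0.73, Padj = 0.865). None of these passed the test.

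After 4 weeks of Cort again no gene of the list passed the edgeR test. Of the 94 genes, 72 were tested, and 0 had a Padj below 0.1 (0.0446% of all 11211 genes tested). An unadjusted P below 0.01 was reached by 1 of the 72 (1.03% of all genes), and one below 0.05 by 2 (4.91%). DESeq2 without a fold change prior called 1 gene, Dnajc11, against 0.384% of all genes. The fitted change was above 0 in 38 and below 0 in 34 (51.9% of all genes above 0), with a median of 0.04, as over all genes. The intervals were wider than at 2 days: 18 of the 72 genes (25.0%) had a 95% interval inside 1 log2 unit, against 9.73% of all genes, and the median SE of the list was 0.515 against 0.26 at 2 days. The spread between samples of a group grew likewise, from a median SD of 0.294 to 0.593 log2 units over the list and from 0.463 to 0.941 over all genes.

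Dnajc11 had the smallest P of the list. It encodes a J protein at the mitochondrial membranes that takes part in the organisation of cristae, and lies at chr4:151933691-151982137 on the plus strand (GRCm38). Its vehicle samples held 46.9, 95.4 and 75.1 CPM and its Cort samples 24.0, 4.93, 11.4 and 3.96 CPM. Each of the 4 Cort samples was below each of the 3 vehicle samples, but the vehicle samples left out held 15.0 and 30 CPM and the Cort sample left out 8.60 CPM, so that the groups of 5 overlapped. The edgeR log2 fold change was -2.69 ± 0.77 (SE), with Padj = 0.889, and it ranked 32 by P among all genes tested. The same gene gave a Padj of 0.0775 in DESeq2 without a prior and 0.106 with it. Over all 10 samples an exact 2-sided permutation test gave P = 0.0159, not adjusted for the number of genes. At 2 days its vehicle samples held 28.8, 37.2 and 28.8 CPM and its Cort samples 30.5, 23.3, 13.4 and 11.6 CPM, which overlap (log2 fold change -0.68 ± 0.40 SE, edgeR Padj = 0.880). Over all 10 samples of that dataset, with 52.0 and 32.4 CPM in the vehicle samples and 25.4 CPM in the Cort sample left out, the exact permutation test gave an unadjusted P of 0.0238.

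Hsp90aa1 was the gene of the list whose 2 groups stood apart over all 10 samples at 4 weeks. It lies at chr12:110690605-110702728 on the minus strand. The vehicle samples compared held 252.3, 233 and 218 CPM and those left out 268 and 225 CPM. The Cort samples compared held 282, 380, 280 and 303 CPM and the one left out 363 CPM. Each of the 5 Cort samples was thus above each of the 5 vehicle samples, an order that no other gene of the 72 showed in either direction and that 0.5% of all genes tested showed (0.901% in either direction). An exact 2-sided permutation test gave P = 0.0079, the smallest that groups of 5 allow, not adjusted for the number of genes. Groups that stand fully apart always give this P, so it restates the order and adds no support. The edgeR log2 fold change over the 7 samples was 0.41 ± 0.26 (SE), with a 95% interval of -0.14 to 0.97 and Padj = 0.990. At 2 days the vehicle samples compared held 339 to 355 CPM and the Cort samples 257 to 361 CPM, with a fitted change of -0.16 ± 0.14 (SE). Among the 7 samples compared at 4 weeks the groups did not overlap for 3 of the 72 genes (6.49% of all genes tested), which were Dnajc11, Hsp90aa1 and Dnaja3, a mitochondrial J protein named after its values were seen. Dnaja3 held 27.0, 29.9 and 30.4 CPM with vehicle and 60.6, 40.2, 57.9 and 36.6 CPM with Cort (log2 fold change 0.75 ± 0.62 SE, Padj = 0.990), and overlapped over all 10 samples.

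**Figure D2:**
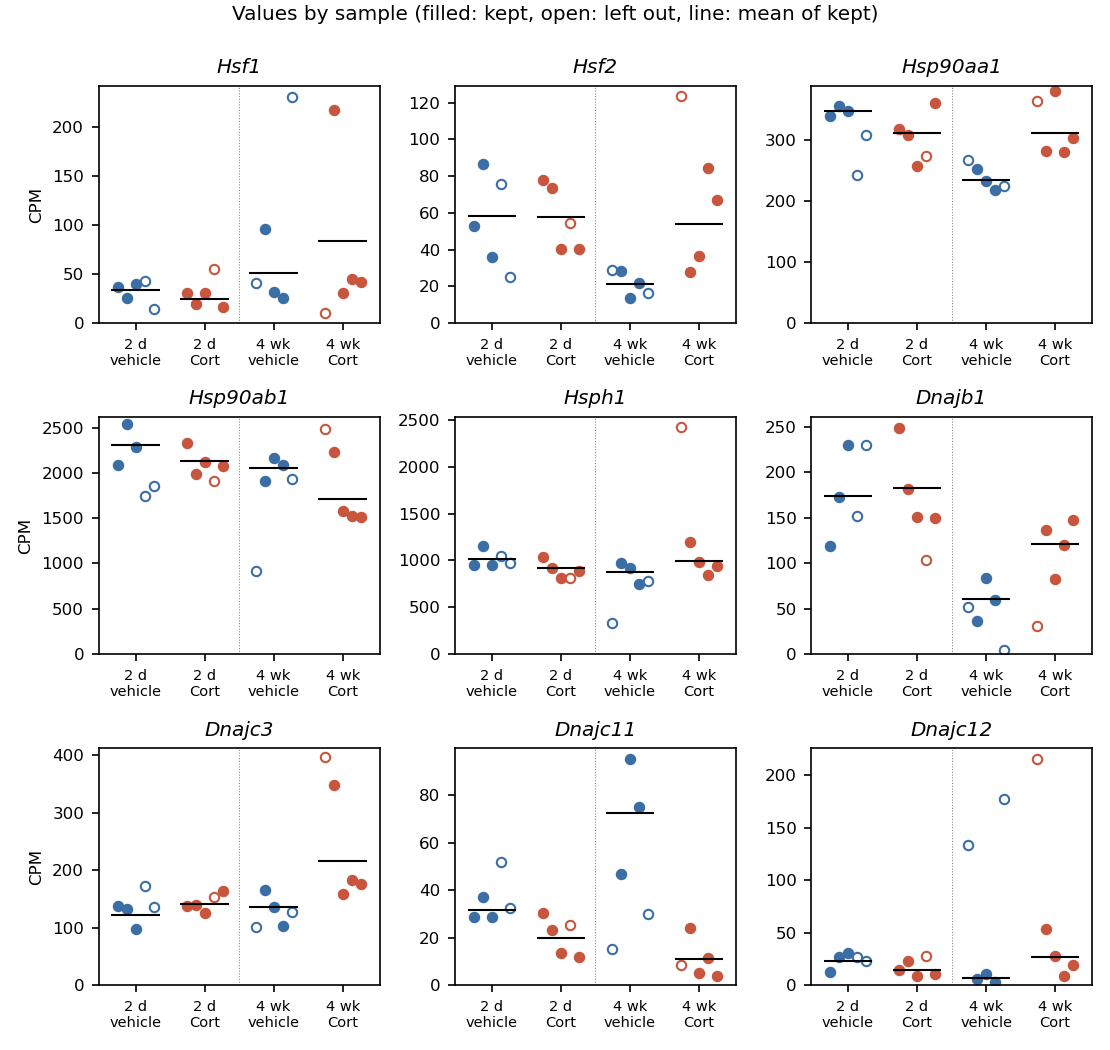
CPM of 9 genes in every sample of the 4 groups, with filled points for the samples compared, open points for those left out and a line for the mean of the filled points. For Hsp90aa1 at 4 weeks all 5 Cort points lie above all 5 vehicle points, and at 4 weeks the open points lie far from the filled ones for Dnajc12 and, in 2 of 3 samples, for Hsph1.

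HSF1 was named by the study as a candidate regulator in its 4 week data. Hsf1 itself held 95.8, 31.9 and 25.9 CPM in vehicle and 217, 31.0, 44.4 and 41.8 CPM in Cort samples at 4 weeks. A single Cort sample, C07, was high, as was a vehicle sample among those left out at 230 CPM, and the groups overlapped (log2 fold change 0.72 ± 0.72 SE, edgeR Padj = 0.990). Without C07 the fitted change was -0.39. Hsf2, which can form trimers with HSF1, held 28.3, 13.8 and 21.9 CPM with vehicle and 27.6, 36.4, 84.2 and 66.7 CPM with Cort, overlapping in 1 Cort sample (1.33 ± 0.69 SE, Padj = 0.990), and over all 10 samples, with 123.6 CPM in the Cort sample left out, the exact 2-sided permutation test gave an unadjusted P of 0.0238. The same 4 week test gave 0.619 for Hsf1, 0.119 for Dnajb1, 0.635 for Dnajc12, 0.0159 for Dnajc3 and 0.0476 for Hsph1. How many of all genes reach such a P was not counted. At 2 days both factors overlapped between groups, with changes of -0.48 for Hsf1 and -0.02 for Hsf2 (Padj = 0.923 and 0.997).

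Dnajb1 encodes the main cytosolic J protein partner of HSP70 and is a classical HSF1 target, at chr8:83608193-83612653 on the plus strand. At 4 weeks it held 36.8, 84.1 and 59.5 CPM in vehicle and 136, 82.2, 120 and 147 CPM in Cort samples, where 1 Cort sample lay below the highest vehicle sample. The log2 fold change was 1.02 ± 0.45 (SE), with Padj = 0.990 in edgeR. The samples left out held 51.6 and 4.65 CPM with vehicle and 30.9 CPM with Cort, below each Cort sample compared. At 2 days vehicle samples held 119, 174 and 231 CPM and Cort samples 249, 182, 151 and 150 CPM, with a change of 0.07 ± 0.22 (SE).

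Dnajb1 and Hsf2 also stand on the list of 15 HSF1 targets that the study drew from its 4 week genes. Of these 15, 10 had a fitted change above 0 and 5 below 0 at 4 weeks, 8 had an unadjusted P below 0.05 and 0 a Padj below 0.1 in edgeR, where 51.9% of all genes were above 0, 4.91% had such a P and 0.0446% such a Padj. Since the study chose them on these samples, their P values are not independent evidence of a change. Over the 2 day samples, which that choice did not use, 7 were above and 8 below 0, and 1 of the 15 (6.67%) had an unadjusted P below 0.05 (5.97% of all genes). Among the chaperone genes with a promoter window, those with a 3-unit element were Dnajb6, Hspd1, Hspe1 and Hsph1. They had 4 week changes between -0.15 and 0.18 and 2 day changes between -0.16 and 0.23. With the 2-unit element, 13 of 16 genes tested at 2 days had a change above 0 (median 0.15), and without it 22 of 45 (median -0.015), while among all genes with the element 51.4% were above 0 (median 0.01). At 4 weeks the counts were 9 of 14 (median 0.13) and 20 of 44 (median -0.05), with 53.6% of all genes with the element above 0 (median 0.07). These splits are descriptions and were not tested.

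**Figure D3:**
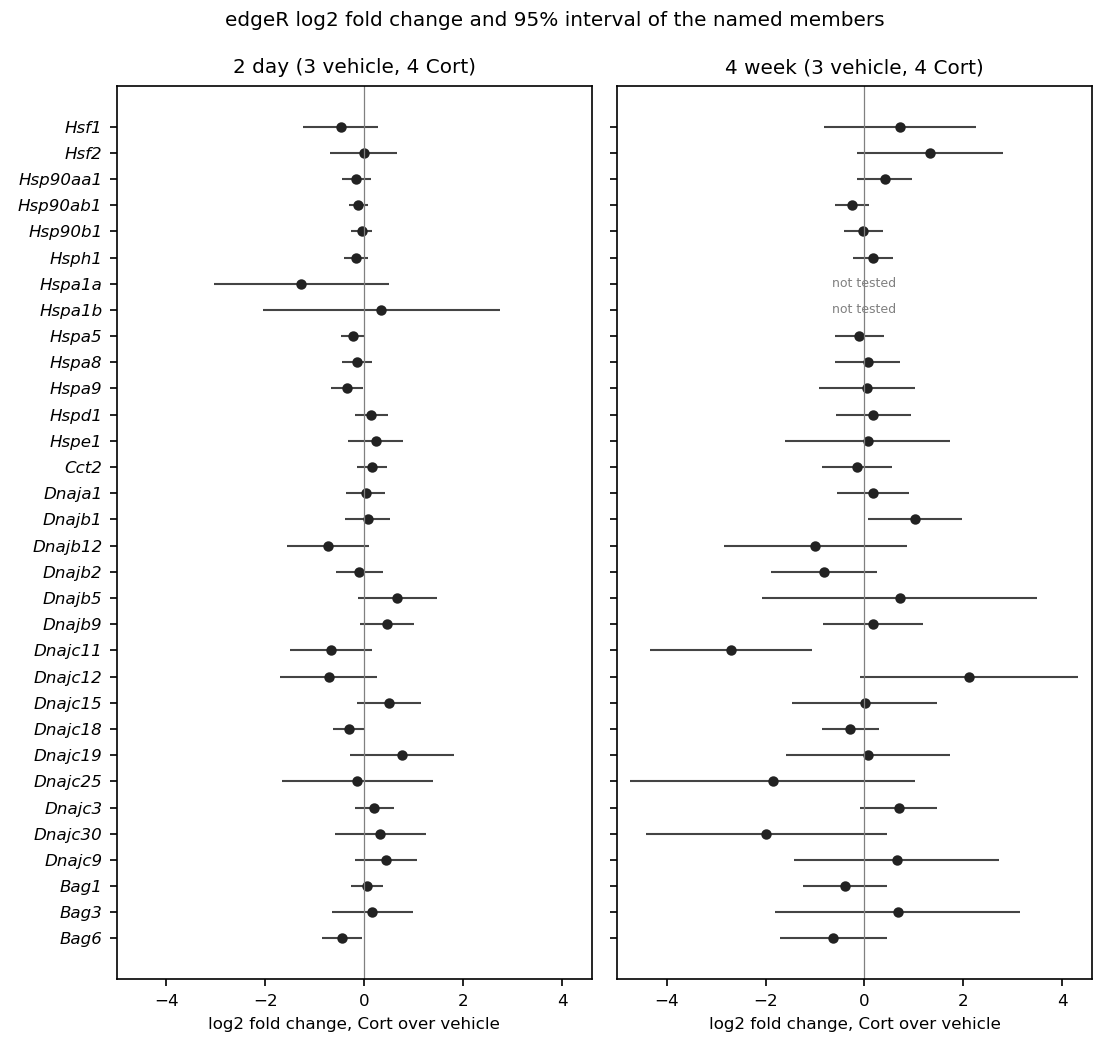
edgeR log2 fold change (Cort over vehicle) with its 95% interval for the named genes tested, ordered by family, at 2 days (left) and 4 weeks (right), each from 3 vehicle and 4 Cort samples. Intervals that leave out 0 belong to Hspa9 and Bag6 at 2 days and to Dnajb1 and Dnajc11 at 4 weeks, none of which had a Padj below 0.1.

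The rest of the machinery at 4 weeks varied around 0. Among HSP90 genes, Hsp90ab1 held 1913, 2165 and 2088 CPM with vehicle and 2231, 1580, 1528 and 1517 CPM with Cort, with 3 of 4 Cort samples below and 1 above all vehicle samples compared (log2 fold change -0.26 ± 0.16 SE, Padj = 0.990). Without that high sample, C07, its unadjusted edgeR P was 0.00808. Over all 10 samples, however, the exact 2-sided permutation test gave an unadjusted P of 0.833. The fitted change of Hsp90ab1 turned above 0 in 1 of 15 alternatives. Hsp90b1 changed by -0.03 ± 0.18 (SE). Hspa8, the constitutive HSP70 also called HSC70, held 288, 214 and 139 CPM with vehicle and 236, 244, 193 and 220 CPM with Cort (0.07 ± 0.31 SE), and Hspa5 had a fitted change of -0.10 ± 0.23 (SE). These 4 genes carry much of the chaperone RNA, and their groups overlapped at 4 weeks.

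Of the exchange factors and chaperonins, Hsph1 held 973, 919 and 746 CPM with vehicle and 1195, 981, 839 and 945 CPM with Cort (0.18 ± 0.19 SE, Padj = 0.990). Of the samples left out, a vehicle sample at 335 CPM and the Cort sample at 2427 CPM were far from these and the other vehicle sample, at 778 CPM, was among them, and with all 10 samples the change became 0.77 with an unadjusted P of 0.0207. Bag3, the stress-induced BAG protein of selective autophagy, was between 3.02 and 26.6 CPM in every 4 week sample compared (0.67 ± 1.17 SE). Hspd1 and Hspe1, the HSP60 and HSP10 of the mitochondrial chaperonin that share the promoter printed above, changed by 0.18 ± 0.36 (SE) and 0.06 ± 0.79 (SE), and Cct2 by -0.15 ± 0.33 (SE). Of the 6 CCT genes tested, 5 had a fitted change below 0 at 4 weeks, where 5 of the same 6 had one above 0 at 2 days, and 0 of them passed an unadjusted P of 0.05 at either time.

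Among the J domain genes at 4 weeks, 19 had a fitted change above 0 and 19 below 0. Dnaja1, a cytosolic partner of HSC70, changed by 0.18 ± 0.34 (SE), and by 0.03 ± 0.19 (SE) at 2 days. Dnajc12, a cochaperone of the aromatic amino acid hydroxylases that make serotonin and catecholamines, held 5.74, 10.5 and 2.68 CPM with vehicle and 53.4, 28.0, 8.27 and 18.9 CPM with Cort (2.11 ± 1.04 SE, Padj = 0.990), but the samples left out held 133 and 177 CPM with vehicle and 215 CPM with Cort, and with all 10 samples the fitted change was -0.02. Dnajc3, an ER J protein that restrains the kinase PERK, held 166, 136 and 103 CPM with vehicle and 349, 159, 183 and 176 CPM with Cort, overlapping in 1 Cort sample (0.69 ± 0.36 SE, Padj = 0.990). The samples left out held 101 and 128 CPM of Dnajc3 with vehicle and 398 CPM with Cort, above each sample compared. With all 10 samples its change was 0.99 and its unadjusted edgeR P 0.00876. On the lower side the smallest P after Dnajc11 belonged to the mitochondrial Dnajc30 (-1.98 ± 1.14 SE), the neuronal Dnajb2 (-0.82 ± 0.50 SE) and Dnajc25 (-1.85 ± 1.36 SE), each with a Padj of 0.990. For Dnajc30 a single vehicle sample, C02, held 74.9 CPM while the other 6 lay between 2.68 and 9.45 CPM.

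**Figure D4:**
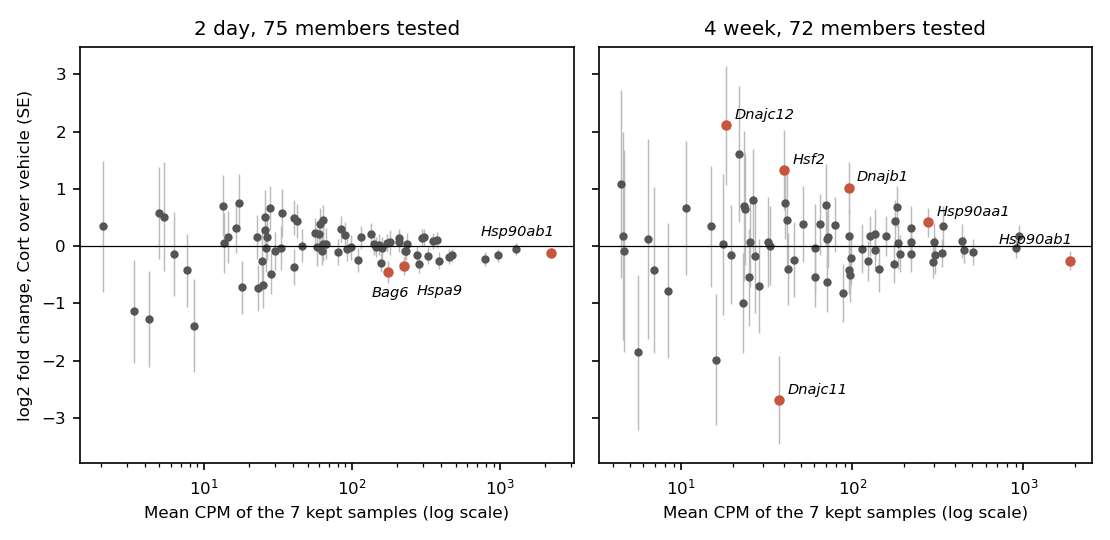
Fitted log2 fold change (Cort over vehicle) with its SE against the mean CPM of the 7 samples compared, on a log axis, for each gene of the list tested at 2 days (75) and 4 weeks (72). Bars are longer at 4 weeks (median SE 0.515 against 0.26), and Dnajc11 (-2.69) and Dnajc12 (2.11) are the farthest from 0 there.

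Whether the response to Cort differed between the 2 datasets was tested as the 4 week change minus the 2 day change over the 14 samples compared. Of 76 genes tested, 0 had a Padj below 0.1 in edgeR (0.0157% of all 12777 genes) or in DESeq2 (0.305%), 0 had an unadjusted P below 0.01 in edgeR (1.35%) and 5 one below 0.05 (6.49%). The 5 were Dnajc12 (difference 2.83 ± 1.06 SE, Padj = 0.714), Hspb1 (Padj = 0.746), Dnajc11 (-2.01 ± 0.88 SE, Padj = 0.746), Hsp90aa1 (0.58 ± 0.26 SE, Padj = 0.748) and Dnajb1 (0.96 ± 0.45 SE, Padj = 0.762). The difference was above 0 in 41 genes and below 0 in 35, with 51% of all genes above 0. For Hspb1 the 3 vehicle samples compared at 4 weeks were at 0 counts and the 4 Cort samples at 0.517 to 3.66 CPM, but a vehicle sample left out held 6.57 CPM, above each Cort sample, and no fold is given. Of the 71 genes tested at both times, 46 lay on the same side of 0 at 2 days and at 4 weeks, 24 above and 22 below, and 25 on opposite sides. The same split was not counted over all genes, so whether the list differs from them here is not known.

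Cochaperones and stress genes outside the name rule were counted in the same fits. In these, 52.1% of all genes tested at 2 days had a change above 0, 5.97% an unadjusted P below 0.05 and 0.065% a Padj below 0.1, and at 4 weeks 51.9%, 4.91% and 0.0446%. Of 22 HSP90 cochaperones, 16 had a change above 0 at 2 days and 2 an unadjusted P below 0.05, Fkbp5 (log2 fold change 1.57 ± 0.35 SE, Padj = 0.243) and Nudcd1, and 0 a Padj below 0.1, and at 4 weeks 11 were above 0 and 0 reached an unadjusted P of 0.05. Fkbp5 is also a classical glucocorticoid target, and the study, with DESeq2, counts it among its genes with a Padj below 0.1 at 2 days. Over all genes tested at 2 days, edgeR called 8 here and DESeq2 without a prior 54. Of 5 HSP70 exchange factors, 10 prefoldin and CCT-assembly genes, 12 further mitochondrial and ER chaperones and 12 ubiquitin and protein stress genes tested at 2 days, and of 5, 10, 12 and 10 at 4 weeks, 0 reached an unadjusted P of 0.05 at either time. Immediate early genes, 10 tested at 2 days and 7 at 4 weeks, did not reach it either. Of 15 genes known to be induced by glucocorticoids, 14 had a change above 0 at 2 days (6 with an unadjusted P below 0.05 and 1 with a Padj below 0.1) and 11 of 14 at 4 weeks (3 and 1).

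Summed levels of cell type markers differed between groups for some cell types. Over 8 ARC neuron markers the sum was 1282 to 1719 CPM in vehicle and 1859 to 2453 CPM in Cort samples at 2 days, and 972 to 1407 CPM in vehicle and 485 to 964 CPM in Cort samples at 4 weeks, without overlap among the 7 samples at either time and in opposite directions. The 4 week sum followed Npy, at 319 to 539 CPM in vehicle and 49.1 to 177 CPM in Cort samples, while Pomc overlapped and the median log2 fold change of the 7 markers tested was -0.11, so this sum is not a measure of the number of neurons. Over 8 oligodendrocyte markers it was 358 to 425 CPM in vehicle and 442 to 622 CPM in Cort samples at 2 days, and over 9 microglia markers 287 to 352 CPM and 353 to 460 CPM, and both overlapped at 4 weeks. Over 8 astrocyte markers it was 2830 to 2961 CPM in vehicle and 3114 to 4246 CPM in Cort samples at 4 weeks, and overlapped at 2 days. Most of that sum was Slc1a2, a glutamate transporter gene, at 1943 to 2075 CPM in vehicle and 2196 to 3350 CPM in Cort samples, and of the 8 markers 4 had a fitted change above 0 and 4 below 0 at 4 weeks (median -0.03). In each of these groups every marker of the 4 lists had counts in at least 1 sample compared. With the samples left out added, each of these sums overlapped between groups. The part of these cells in the values of Hspa9, Dnajc11, Hsp90aa1 and the other genes was not tested.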

How the data were processed

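RNA of the laser-captured ARC was amplified with the Ovation RNA-seq System V2, and whether the libraries marked strand is not given in the sources used here. The authors aligned reads to GRCm38 with Rsubread and deposited raw counts per gene from featureCounts. The authors also deposited a normalised table for each dataset, whose signal values (counts scaled by DESeq2) were used here only to pair gene IDs with symbols, since 5 of the 7 column names of the 2 day table belong to differently named count columns. Groups of the count columns came from the study's read table, and columns carry no replicate number.

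Genes kept by filterByExpr were tested with edgeR 4.0.16 (quasi-likelihood, TMM, R 4.3.3) in each dataset over 3 vehicle and 4 Cort samples, and for the interaction over the 14 samples together, with Benjamini-Hochberg adjustment over all genes tested. A Padj below 0.1 was a call, as in the study's methods. CPM were TMM-scaled over all 10 samples of a dataset. Permutation tests compared mean log2 CPM (prior count 2), where the smallest P is 0.0286 for 3 against 4 samples and 0.0079 for 5 against 5. Alternatives used DESeq2 1.42.0, limma 3.58.1, other scalings and filters, all samples, and each sample left out. The fitting scripts were tested on simulated data. No pair of libraries agreed within sampling noise (lowest chi-square per degree of freedom 13.35 at 2 days, 25.57 at 4 weeks). The floor of 3 counts only marks low values and did not filter genes.

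The members and gene lists were chosen with earlier results of these data known. Genes named were fixed members of each family, HSF1 and HSF2, those with P below 0.01, the 5 smallest P in each direction and dataset, the 5 highest per kb, and members of the study's HSF1 target list. Others are said to have been named after their values were seen.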

Additional observations from a re-analysis of the deposited data

Results flagged for a closer look

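Within each group of 4 Cort samples, 3 of 66 gene and group combinations had a sample far from the other 3, and chance flags about 1 in 20. Dnajb9 was at 52.1 CPM in 2 day Cort sample C06, with 76.8 to 79.5 CPM in the others. Dnajc25 was at 5.40 CPM in 4 week Cort sample C08, with 1.55 to 1.83 CPM in the others, near the floor. Hsp90ab1 was at 2231 CPM in 4 week Cort sample C07, with 1517 to 1580 CPM in the others.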

How the results depend on the processing

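Under the alternatives the median log2 fold change of the list ran from -0.03 to 0.06 at 2 days, -0.06 to 0.07 at 4 weeks and -0.11 to 0.15 for the interaction, on both sides of 0 each time. Calls at a Padj below 0.1 stayed at 0, except 1 at 4 weeks with DESeq2 without a prior (Dnajc11). At an unadjusted P below 0.01, leaving out 1 sample gave 0 to 1 genes at 2 days (Hspa12b without C03, Bag6 without C04). Of all genes tested, 0.856% to 1.83% had such a P in those fits. At 4 weeks it gave 0 to 2 genes (0 without C03 or C04, 2 without C07), with 0.683% to 1.1% of all genes. For the interaction it gave 0 to 1 (Dnajc12 without 4 week C03 or C09, Dnajc11 without 4 week C07), with 0.661% to 2.09% of all genes. At 4 weeks the count was 2 with no filter on low counts (Dnajc11, Hspb9, with 1.56% of all genes). It was also 2 with all samples (Dnajc11, Dnajc3, with 0.971% of all genes). For the interaction the count was 1 with DESeq2 (Dnajc12), 1 with no filter (Hspb9) and 1 with all samples (Hsph1). The shares of all genes there were 2.65%, 1.52% and 1.35%. The causes were not tested. The fitted change of Dnajc11 at 4 weeks stayed below 0 in all 15 alternatives, from -3.44 to -1.68. That of Hsf1 turned below 0 in 3 of 15, and that of Dnajc12 was -0.02 with all samples. DESeq2 with a prior was not run for the interaction. No paired analysis was possible because the count columns carry no replicate numbers. At 4 weeks 18 of 72 intervals lay within a 2-fold change, and the others reached beyond it in at least 1 direction. Fitted changes larger than 2-fold also went uncalled in edgeR, such as Dnajc11 (log2 fold change -2.69, Padj = 0.889) and Dnajc12 (2.11, Padj = 0.990). A missing call therefore does not mean that a change was small.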
